A study of Mus musculus with 6 samples.

Results

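Fibronectin, the SPARC proteins, the thrombospondins, the spondins, periostin, tenascin C and versican were examined in liver RNA as a set of 10 genes, which is 10 of the 28601 genes in the deposited table. The set comprises Fn1, Sparc, Sparcl1, Thbs1, Thbs2, Spon1, Spon2, Postn, Tnc and Vcan. These genes were chosen by name as a protein class, at a time when the expression values of the same genotype contrast were already known. Their own values are therefore given as a description, and the adjusted p-values below, taken from a fit over all genes, only place each gene in the whole table.

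The livers came from 6 male mice, 3 carrying the Cys52Ser substitution in PRDX1 (called Cys52Ser here) and 3 wild type (WT). PRDX1 is peroxiredoxin 1, an enzyme that removes hydrogen peroxide through a reactive cysteine. Every mouse ate CDAHFD, a choline-deficient, amino acid-defined, high-fat diet that produces fatty liver inflammation with scarring in mice. Feeding started when the mice were 8 weeks old, and the titles and design text put its length at 8 weeks. Another label field instead gives 11, 12 and 13 weeks for Cys52Ser replicates 1, 2 and 3 and 8, 9 and 10 weeks for WT replicates 1, 2 and 3. If that field were right, the effects of genotype and of feeding time cannot be told apart. The sources used here state neither the strain nor how many mutant alleles the mice carried.

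Matricellular proteins are secreted into the extracellular matrix, where they bind matrix fibres, growth factors and cell surface receptors, and so tune how cells attach, migrate and respond to signals. Most are scarce in resting adult tissue and abundant in healing wounds. In the injured liver, stellate cells that have become myofibroblasts are a known source of many of them. Fibronectin is a fibre-forming glycoprotein on which collagen is assembled. It differs from the others in that hepatocytes also release a soluble form into plasma.

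Total counts per library lay between 53318196 and 73900923, and 21516 to 23865 genes were detected. Levels are given as CPM, which are counts scaled to library size with TMM factors, or as FPKM where genes are compared with each other per transcript length. The TMM factors were 0.814 to 0.963 in Cys52Ser and 1.05 to 1.21 in WT, so the choice of scaling shifts the groups against each other. The median log2 fold change over all tested genes was -0.003 with TMM and -0.35 when libraries were scaled by their totals only. All 11 hepatocyte markers in the table were detected, Alb reaching 93820 ± 9491 CPM in Cys52Ser and 43150 ± 12040 CPM in WT (SD, n = 3 each). Prdx1 itself had 859, 661 and 819 CPM in Cys52Ser and 864, 919.5 and 978 CPM in WT (log2 fold change -0.24, edgeR adjusted p = 0.421), and its RNA level does not check a substitution of a single residue.

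The set did not move as a block. Spon2, Thbs2 and Sparc fell in Cys52Ser livers, Fn1 rose, and the other 6 genes did not pass. All 10 genes were tested, and the call was made by edgeR's quasi-likelihood test at a Benjamini-Hochberg adjusted p under 0.05 over 18648 genes. Of all tested genes, 4.98% were called, 2.46% as lower and 2.52% as higher. The 9 genes other than Fn1 all had negative log2 fold changes, and the median over the 10 genes was -1.14. Every Cys52Ser library lay below every WT library for 5 genes (Sparc, Thbs1, Thbs2, Spon2 and Vcan) and above for Fn1, while 4 genes overlapped. Over all tested genes, 15.2% were lower and 14.4% higher without overlap. In whole liver, fewer cells of a type and less RNA per cell cannot be told apart.

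**Figure D1:**
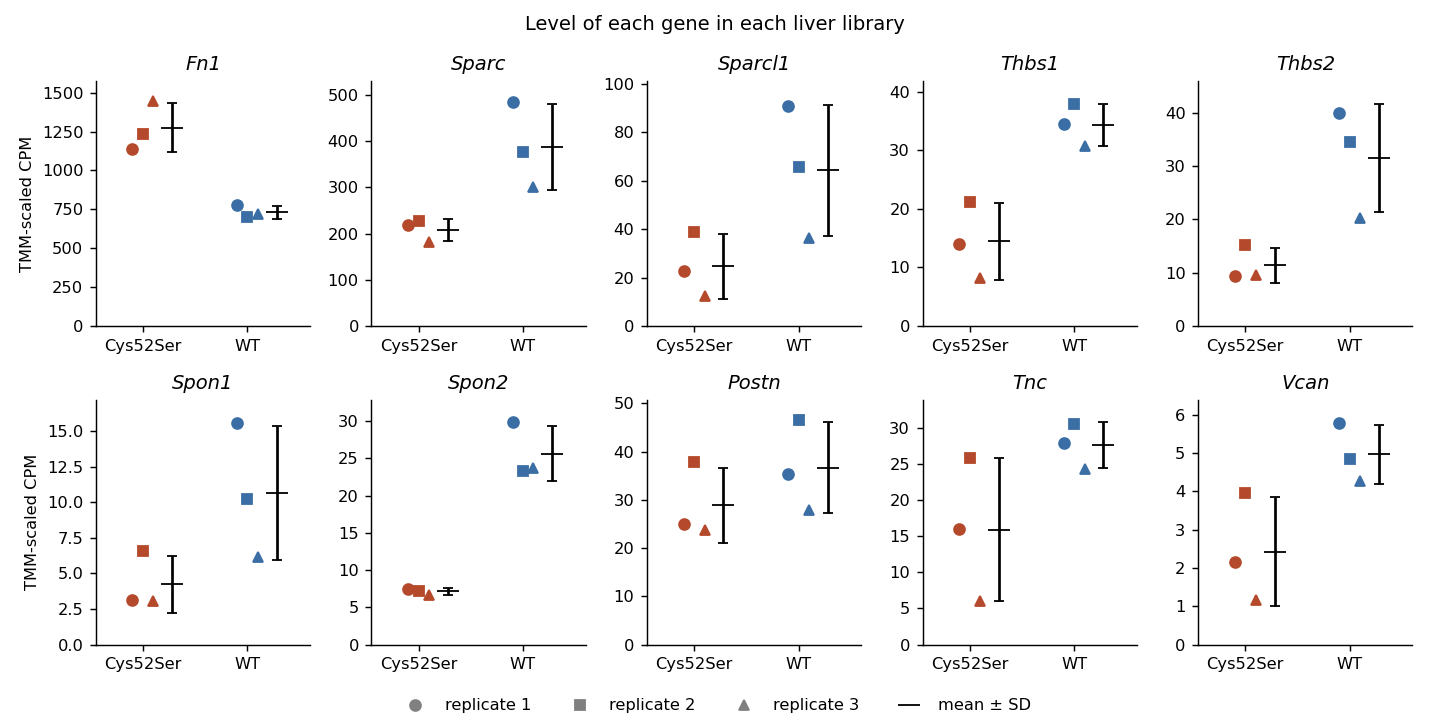
TMM-scaled CPM (vertical axis, from 0) of each gene in the 3 Cys52Ser and the 3 WT libraries, with circles, squares and triangles for replicates 1, 2 and 3 and the black bar for the mean ± SD of each group. Fn1 is the only panel with the Cys52Ser points above the WT points, and Spon2 has the tightest Cys52Ser points, from 6.66 to 7.50 CPM.

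**Figure D2:**
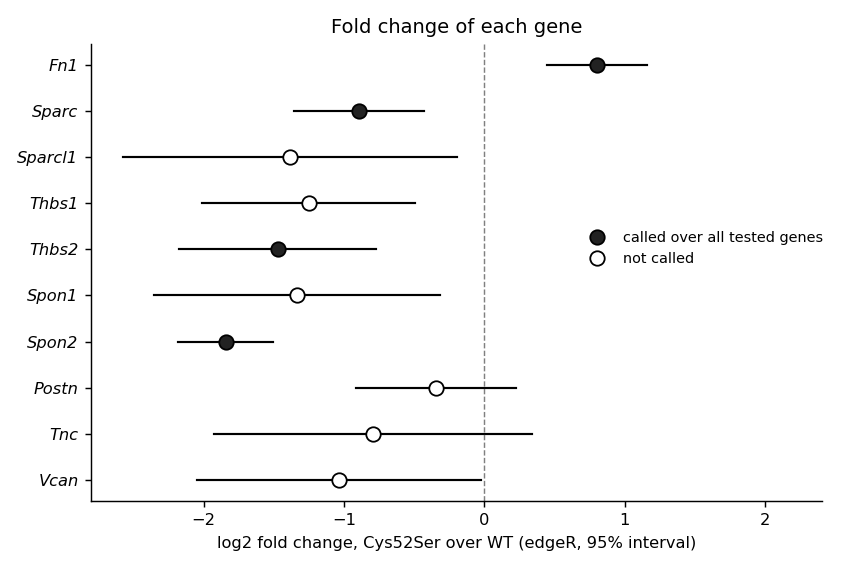
log2 fold change of Cys52Ser over WT for each gene from the edgeR fit, with its 95% interval as a line and filled points for the 4 genes called over all tested genes. Intervals of Postn and Tnc cross 0, and that of Fn1 runs from 0.45 to 1.15.

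Fibronectin was the gene of the set that rose. Fn1 (ENSMUSG00000026193, GRCm38 chromosome 1, 71585520 to 71653175, minus strand) had 1140.0, 1235 and 1448 CPM in Cys52Ser livers, against 778, 699.7 and 718 CPM in WT livers. The lowest Cys52Ser library was well above the highest WT library. The group means were 1275 ± 158 CPM in Cys52Ser and 732 ± 41.2 CPM in WT (SD, n = 3 each), a log2 fold change of 0.80 with a standard error of 0.15 (edgeR adjusted p = 0.0359). Leaving out any 1 of the 6 libraries ended the call (adjusted p from 0.0551 to 0.115), while the log2 fold change stayed between 0.70 and 0.87. Scaled by library totals, its log2 fold change was 0.44 (adjusted p = 0.0561). On the FPKM scale Fn1 stood at 75.5, 89.8 and 90.6 in Cys52Ser, against 71.7, 60.3 and 56.4 in WT, so the gap between the groups was narrow there though they still did not overlap.

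Hepatocyte markers were followed beside Fn1. All 11 tested had positive log2 fold changes with a median of 0.64, and Cps1, an enzyme of the urea cycle, and Hnf4a, a transcription factor of hepatocyte identity, rose 2.64-fold and 1.898-fold (edgeR adjusted p = 0.0302 and 0.0355). For Apoa1, a lipoprotein component, and for Alb the log2 fold changes were 0.86 and 1.12 (adjusted p = 0.0641 and 0.0573). Summed over the list, hepatocyte markers stood at 122500 to 151200 CPM in Cys52Ser and 52170 to 84800 CPM in WT. Their part in the Fn1 result was not tested.

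SPARC binds collagen and is needed for its normal assembly, and SPARCL1, also called hevin, is its closest relative. Sparc (ENSMUSG00000018593, chromosome 11, 55394500 to 55423183, minus strand) had 218, 226 and 181.5 CPM in Cys52Ser, against 485, 376 and 301 CPM in WT. The groups were apart, and the WT livers varied more than the Cys52Ser livers. Sparc fell by 0.89 on the log2 scale with a standard error of 0.20 (edgeR adjusted p = 0.0494), close to the threshold. The call was lost on leaving out any library other than WT replicate 3 (adjusted p = 0.0788 to 0.155), with log2 fold changes from -0.96 to -0.75 in those fits.

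Sparcl1 (ENSMUSG00000029309, chromosome 5, 104079111 to 104113733, minus strand) had 22.8, 39.0 and 12.2 CPM in Cys52Ser, against 90.8, 65.5 and 36.5 CPM in WT. The highest Cys52Ser library, replicate 2, was above the lowest WT library, replicate 3, so the groups overlapped. Its log2 fold change of -1.38 was larger in size than that of Sparc, but the standard error of 0.49 was larger too (edgeR adjusted p = 0.165). Without Cys52Ser replicate 2 it was -1.88 (adjusted p = 0.0841).

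Thrombospondins 1 and 2 are trimeric glycoproteins that restrain blood vessel growth through the receptors CD36 and CD47, and thrombospondin 1 also activates latent TGF-beta. Thbs2 (ENSMUSG00000023885, chromosome 17, 14665500 to 14694235, minus strand) had 9.44, 15.2 and 9.63 CPM in Cys52Ser, against 39.9, 34.6 and 20.3 CPM in WT. The groups did not overlap, although WT replicate 3 lay nearer to the Cys52Ser libraries than to WT replicate 1. The gene was 2.77-fold lower (log2 fold change -1.47, standard error 0.30, edgeR adjusted p = 0.0434). Leaving out Cys52Ser replicate 1 or 3 or WT replicate 1 or 2 ended the call, with adjusted p from 0.112 to 0.140 and log2 fold changes from -1.45 to -1.31. Such fits hold fewer mice, and the count of genes called over the whole table, 928 with all 6 libraries, was 28 to 829 in them.

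Thbs1 (ENSMUSG00000040152, chromosome 2, 118111876 to 118127133, plus strand) had 13.95, 21.2 and 8.12 CPM in Cys52Ser, against 34.5, 37.9 and 30.7 CPM in WT. All Cys52Ser libraries were below all WT libraries, with the wider spread in Cys52Ser (14.4 ± 6.56 CPM) than in WT (34.4 ± 3.58 CPM, SD, n = 3 each). Its log2 fold change of -1.25 missed the threshold (edgeR adjusted p = 0.075). Dropping Cys52Ser replicate 2 brought it past (log2 fold change -1.64, adjusted p = 0.0419), as did scaling by library totals (-1.57, adjusted p = 0.0369). Within a library the log2 ratio of Thbs1 to Thbs2 in FPKM was 0.77, 0.69 and -0.04 in Cys52Ser and -0.004, 0.34 and 0.80 in WT, so the pair kept overlapping proportions.

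The promoter window of Thbs2 is shown because it is the gene called lower whose RefSeq window lies 27 bases from the start of its deposited gene model and outside annotated exons. It covers the 250 bases before the RefSeq start, chr17:14694263-14694512 (GRCm38.p6, minus strand). Capitals mark the 3 motif matches found.
Thbs2: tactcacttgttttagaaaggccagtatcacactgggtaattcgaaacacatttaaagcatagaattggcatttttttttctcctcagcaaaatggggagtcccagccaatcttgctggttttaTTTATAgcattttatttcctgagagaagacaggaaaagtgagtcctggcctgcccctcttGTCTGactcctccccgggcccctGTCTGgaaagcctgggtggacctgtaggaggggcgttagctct
The capitals are a TATAAA match (TATA box) on the reverse strand at 126 to 121 bases before the start and 2 CAGAC matches (SMAD element), also reversed, at 66 to 62 and 43 to 39 bases before it. Of 32851 RefSeq promoter windows of this length, 12.4% held TATAAA and 42.2% held CAGAC on either strand, and a match is one of letters alone.

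Spondins carry thrombospondin-type repeats. F-spondin, the product of Spon1, is best known from axon guidance, and mindin, the product of Spon2, binds bacterial lipopolysaccharide and integrins of immune cells. Spon2 (ENSMUSG00000037379, chromosome 5, 33198184 to 33218455, minus strand) had 7.50, 7.23 and 6.66 CPM in Cys52Ser, against 29.9, 23.3 and 23.6 CPM in WT. The Cys52Ser livers were nearly alike, and every WT liver lay far above them. Spon2 was 3.59-fold lower, the largest fold of the set (log2 fold change -1.84, standard error 0.14, edgeR adjusted p = 0.0107). It was called without each of the 6 libraries in turn, with adjusted p from 0.0228 to 0.0461 and log2 fold changes from -1.96 to -1.76.

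Spon1 (ENSMUSG00000038156, chromosome 7, 113765998 to 114043370, plus strand) had 3.11, 6.55 and 3.04 CPM in Cys52Ser, against 15.6, 10.2 and 6.17 CPM in WT. Cys52Ser replicate 2 was slightly above WT replicate 3, so the groups overlapped. The log2 fold change was -1.33 with a standard error of 0.43 (edgeR adjusted p = 0.127), and -1.80 without Cys52Ser replicate 2 (adjusted p = 0.0682). The log2 ratio of Spon1 to Spon2 was -3.09, -1.96 and -2.95 in Cys52Ser and -2.76, -3.00 and -3.76 in WT, with overlap.

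Periostin binds integrins and helps to crosslink collagen, and it is a common marker of fibrotic tissue. Postn (ENSMUSG00000027750, chromosome 3, 54361109 to 54391037, plus strand) had 25.0, 37.8 and 23.8 CPM in Cys52Ser, against 35.3, 46.6 and 27.97 CPM in WT. The 2 groups were interleaved. Its log2 fold change of -0.34 was the smallest in size of the set, with a 95% interval from -0.92 to 0.23 (edgeR adjusted p = 0.469). An interval that reaches -0.92 does not show that the groups were alike.

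The Postn window that ends 2 bases from its deposited start, chr3:54360857-54361106 (GRCm38.p6, plus strand), is shown for comparison with that of Thbs2. It held a single match, given in capitals.
Postn: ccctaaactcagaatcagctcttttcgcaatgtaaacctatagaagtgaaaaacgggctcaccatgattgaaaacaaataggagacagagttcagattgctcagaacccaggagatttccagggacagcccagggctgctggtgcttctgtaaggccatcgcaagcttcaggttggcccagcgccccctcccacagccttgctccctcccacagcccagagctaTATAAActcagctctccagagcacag
This is TATAAA as spelled, 26 to 21 bases before the RefSeq start. A further RefSeq start, 1842 bases from the deposited one, had a window with a single CAGAC match.

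Tenascin C is an adhesion-modulating glycoprotein of wounds and tumour stroma. Tnc (ENSMUSG00000028364, chromosome 4, 63959785 to 64020725, minus strand) had 16.0, 25.9 and 6.01 CPM in Cys52Ser, against 27.96, 30.7 and 24.3 CPM in WT. The Cys52Ser livers were far apart from each other, and replicate 2 of that group lay within the WT range. The coefficient of variation was 62.2% in Cys52Ser, the highest of the set, and 11.6% in WT. The log2 fold change was -0.79 with a 95% interval from -1.92 to 0.34 (edgeR adjusted p = 0.389). It was -1.33 without Cys52Ser replicate 2 (adjusted p = 0.121) and -0.40 without Cys52Ser replicate 3 (adjusted p = 0.413).

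Versican is a large proteoglycan that binds hyaluronan and swells the matrix. Vcan (ENSMUSG00000021614, chromosome 13, 89655312 to 89742509, minus strand) was the lowest of the set per transcript length, and had 2.14, 3.96 and 1.17 CPM in Cys52Ser, against 5.79, 4.83 and 4.26 CPM in WT. The groups were apart, but Cys52Ser replicate 2 came close to WT replicate 3. The log2 fold change was -1.03 with a standard error of 0.43 (edgeR adjusted p = 0.213), and -1.58 without Cys52Ser replicate 2 (adjusted p = 0.0675).

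The Vcan window, chr13:89742513-89742762 (GRCm38.p6, minus strand), ends 3 bases from the deposited start and held other motifs than those of Thbs2 and Postn, given in capitals.
Vcan: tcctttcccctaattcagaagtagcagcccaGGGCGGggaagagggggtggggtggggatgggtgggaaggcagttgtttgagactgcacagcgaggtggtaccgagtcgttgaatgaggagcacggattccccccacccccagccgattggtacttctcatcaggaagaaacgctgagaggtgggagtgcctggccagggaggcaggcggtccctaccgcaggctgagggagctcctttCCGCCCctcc
Its capitals are 2 matches to GGGCGG (SP1 GC box), as spelled at 219 to 214 and reversed at 10 to 5 bases before the start. GGGCGG on either strand was found in 32.7% of all windows. The windows held 62.4% G and C bases in Vcan, 52% in Postn and 46.8% in Thbs2, with a median of 52.4% over all windows. Neither TGANTCA (AP-1), found in 6.75% of all windows, nor GGAATG (TEAD), found in 12.6%, occurred in any of the 7 windows of the 5 genes with an entry (Postn, Tnc, Sparc, Vcan and Thbs2).

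Per transcript length, the order at the top of the set differed between the genotypes. Fn1 led in Cys52Ser, at 75.5 to 90.6 FPKM, and Sparc followed at 35.0 to 50.7 FPKM. In WT, Sparc led at 72.9 to 138 FPKM and Fn1 followed at 56.4 to 71.7 FPKM. These ranges did not overlap within either group. The ratio of Sparc to Fn1, chosen after the values were seen, does not depend on the scaling of libraries. Its log2 value was -0.76, -0.82 and -1.37 in Cys52Ser and 0.94, 0.73 and 0.37 in WT. Fn1 thus made up 54.1% to 67.1% of the summed FPKM of the 10 genes in Cys52Ser and 26.0% to 34.8% in WT. Without Fn1 the summed FPKM was 59.4, 76.1 and 44.5 in Cys52Ser, against 204, 152 and 106 in WT.

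Sparcl1 was the third gene in both groups, with means of 6.77 FPKM in Cys52Ser and 22.4 FPKM in WT. Below it the Cys52Ser order was Postn, Thbs1, Spon2, Tnc and Thbs2, with means from 2.63 to 1.295 FPKM, and each of these overlapped its neighbours in this list. In WT the order was Spon2, Thbs1, Thbs2, Postn and Tnc, with means from 8.73 to 3.57 FPKM. Spon2 there stood apart from Thbs1 below it, while Thbs1, Thbs2, Postn and Tnc overlapped their neighbours. Spon1 and Vcan closed both orders, at 0.326 and 0.135 FPKM in Cys52Ser and 1.05 and 0.345 FPKM in WT. Spon2 thus held place 6 in Cys52Ser and place 4 in WT, and Postn place 4 in Cys52Ser and place 7 in WT.

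**Figure D3:**
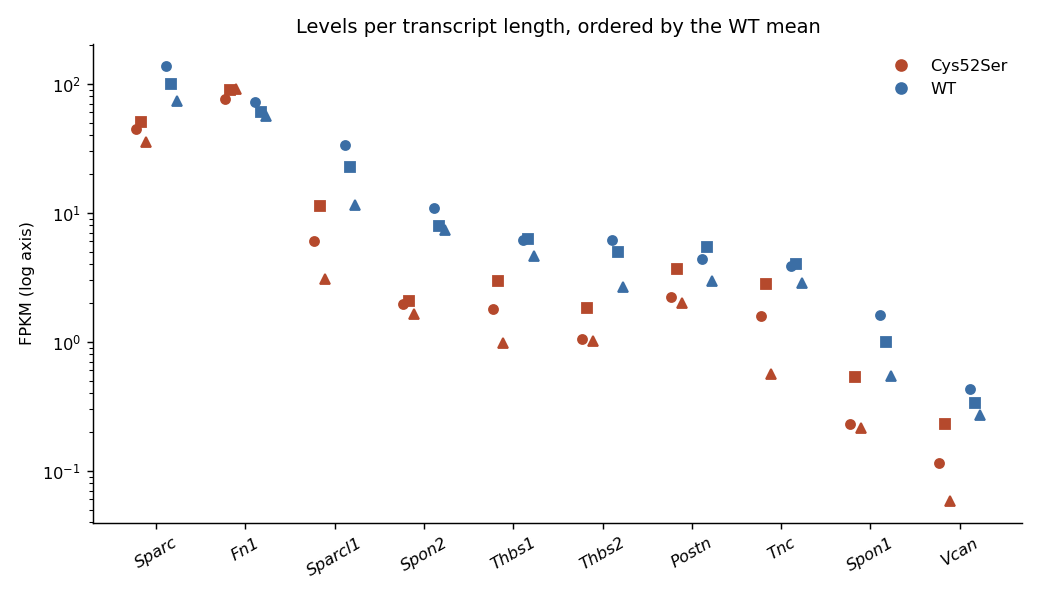
FPKM (log axis) of each gene, ordered from left to right by the WT mean, with Cys52Ser points left of WT points and circles, squares and triangles for replicates 1, 2 and 3. Sparc is highest in every WT library and Fn1 in every Cys52Ser library, and Vcan is lowest in all 6.

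The ratios of Tnc and Vcan to Fn1 also separated the groups. The ratios over Fn1 share its higher Cys52Ser level, so they are not separate results. For Sparc and Vcan the separation follows from levels already apart in the opposite direction to Fn1. Tnc by itself overlapped between the groups. Log2 ratios of Tnc to Fn1 were -5.57, -4.99 and -7.33 in Cys52Ser, against -4.21, -3.93 and -4.30 in WT. Those of Vcan to Fn1 were -9.37, -8.60 and -10.6 in Cys52Ser, against -7.38, -7.49 and -7.71 in WT. The WT values were close together, with SDs of 0.19 and 0.17, and the Cys52Ser values were spread, with SDs of 1.22 and 1.01. By contrast, the log2 ratio of Sparc to Sparcl1 overlapped, at 2.89, 2.17 and 3.53 in Cys52Ser and 2.05, 2.15 and 2.68 in WT.

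**Figure D4:**
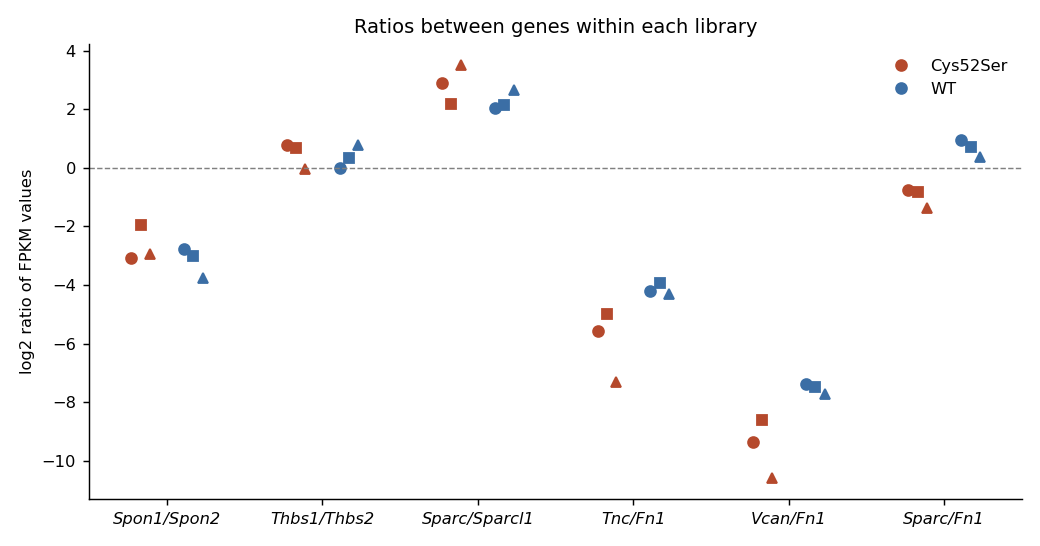
log2 ratio of FPKM values for 6 pairs of genes within each library, with Cys52Ser points left of WT points and circles, squares and triangles for replicates 1, 2 and 3. The 3 ratios over Fn1 separate the groups, whereas Spon1/Spon2, Thbs1/Thbs2 and Sparc/Sparcl1 overlap.

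The livers within a group also differed from each other in a shared way. Among the 9 genes other than Fn1, 8 were highest in Cys52Ser replicate 2 within that group, the exception being Spon2, and 8 were lowest in Cys52Ser replicate 3, the exception being Thbs2. In WT, 6 of the 9 were highest in replicate 1, the others in replicate 2, and 8 were lowest in replicate 3, the exception again being Spon2. Fn1 was highest in Cys52Ser replicate 3 and WT replicate 1. Cys52Ser replicate 3 also had the fewest detected genes of all libraries, 21516. How all tested genes ranked within each group was not examined, so these patterns are not shown to be particular to the set. Variation was larger in Cys52Ser than in WT for 7 of the 10 genes by the coefficient of variation of CPM.

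Markers of mesenchymal cells were followed in the same libraries. Of 16 markers of stellate cells and myofibroblasts, 8 were called lower and none was called higher. Their log2 fold changes, 14 negative and 2 positive, had a median of -0.99. The summed level of the list was 1090 to 1334 CPM in Cys52Ser and 1781 to 3028 CPM in WT. Those called lower were the collagen gene Col3a1 (2.53-fold), the small proteoglycans Lum (3.21-fold) and Dcn (1.74-fold), and Ngfr, Cygb, Lrat, Pdgfra and Rgs5 (1.51-fold to 3.09-fold). Col3a1 had 259 ± 28.5 CPM in Cys52Ser and 656 ± 194.5 CPM in WT (SD, n = 3 each, edgeR adjusted p = 0.0302). The contractile genes of the list, named after their values were seen, overlapped between the groups. Acta2, smooth muscle actin, had 16.5, 90.4 and 9.86 CPM in Cys52Ser, against 18.4, 29.6 and 20.9 CPM in WT. Its log2 fold change was 0.76, that of Des, the filament protein desmin, 0.66 and that of Tagln, an actin-binding protein, -0.13 (adjusted p = 0.674, 0.676 and 0.909). All 3 were highest in Cys52Ser replicate 2. The part of this list in the lower values of the matricellular genes was not tested.

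Cys52Ser replicate 2, in which 8 matricellular genes were highest within the Cys52Ser group but not over all libraries, stood apart in smooth muscle markers. Of 6 tested genes of that list none was called, and the list's summed level was 342 CPM in this library, 102 and 104.5 CPM in Cys52Ser replicates 1 and 3, and 91.9 to 130.1 CPM in WT. The list's most abundant genes per length were Actg2, a smooth muscle actin, with 3.64, 52.9 and 1.84 CPM in Cys52Ser, against 2.04, 6.495 and 2.88 CPM in WT, and Mylk, the myosin light chain kinase (log2 fold change 0.27, edgeR adjusted p = 0.488). Mesothelial markers summed to 27.5 CPM in the same library, 13.2 and 4.02 CPM in the other Cys52Ser livers, and 21.5 to 25.8 CPM in WT. None of 6 mesothelial markers was called. Log2 fold changes were negative for 5 and positive for 1 of them, with a median of -1.35. Gpm6a and Msln were the most abundant per length (log2 fold changes -0.86 and 1.18, edgeR adjusted p = 0.418 and 0.654). Pancreatic genes, of which 3 were tested and none called, summed to 216.5 CPM in Cys52Ser replicate 2. Their sums were 40.6 and 10.9 CPM in the other Cys52Ser livers, and 19.0 to 41.3 CPM in WT. Clps led (log2 fold change 2.08, edgeR adjusted p = 0.601), with Cela1 next (0.38, adjusted p = 0.317). Clps alone made up 94.0% of the sum in Cys52Ser replicate 2. Cela1 was not highest in that library, with 16.7, 12.6 and 10.8 CPM in Cys52Ser replicates 1, 2 and 3. The part of these transcripts in the values of the matricellular genes was not tested.

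**Figure D5:**
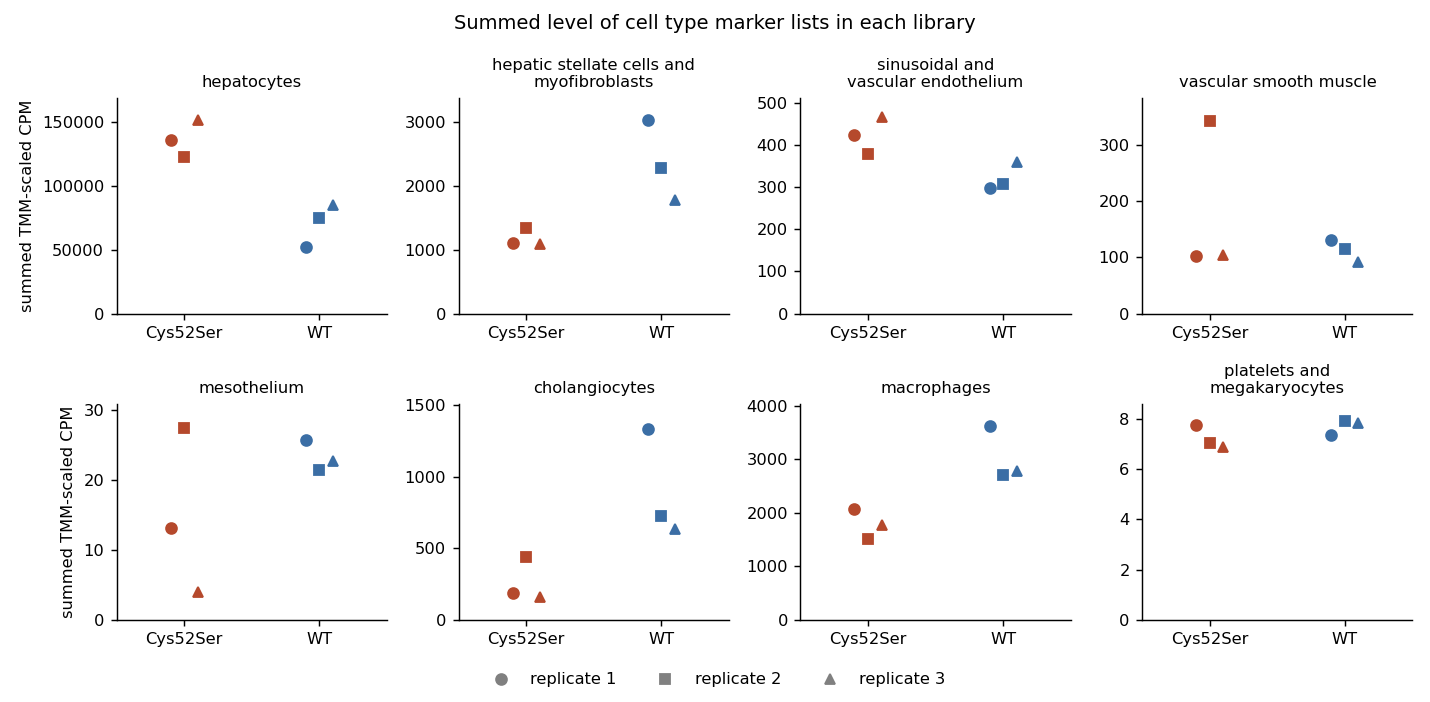
Summed TMM-scaled CPM (vertical axis, from 0) of 8 cell type marker lists in each Cys52Ser and WT library, with circles, squares and triangles for replicates 1, 2 and 3. Hepatocyte sums are higher and stellate and macrophage sums lower in all Cys52Ser libraries, the cholangiocyte sums are also lower but overlap without Spp1, and the smooth muscle sum is high in Cys52Ser replicate 2 alone.

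Other cell types that can hold these transcripts gave mixed values. Of 10 endothelial markers, 2 rose, namely the receptor gene Kdr (1.57-fold, edgeR adjusted p = 0.0243) and the junction gene Cdh5 (1.76-fold, adjusted p = 0.0315), and the sums were 379.5 to 465 CPM in Cys52Ser and 298.5 to 359 CPM in WT. The abundant sinusoidal genes Clec4g and Lyve1 had log2 fold changes of 0.36 and 0.00 (adjusted p = 0.354 and 0.994). Platelets store thrombospondin 1, and 4 platelet markers were tested with none called, the list's sum lying at 6.87 to 7.77 CPM in Cys52Ser and 7.37 to 7.91 CPM in WT. Pf4 and Itga2b led that list, with log2 fold changes of -0.63 and 0.24 (adjusted p = 0.154 and 0.586). Of 8 cholangiocyte markers, Pkhd1 fell 3.57-fold, Spp1, which is also among the relatives below, and Krt19 did not pass (adjusted p = 0.0692 and 0.806), and the sums were 157 to 442 CPM in Cys52Ser and 634.5 to 1337 CPM in WT. Spp1 alone made up 73.7% to 75.7% of that sum in Cys52Ser and 85.4% to 88.0% in WT. Without it, a sum added after seeing the data, the list stood at 49.7, 107 and 41.3 CPM in Cys52Ser and 176, 105 and 76.4 CPM in WT, so that the groups overlapped. Of 10 macrophage markers, Gpnmb, Trem2, Cd9 and Lyz2 fell, Clec4f rose, and Cd5l did not pass (log2 fold change 0.41, adjusted p = 0.569), with sums of 1515 to 2073 CPM in Cys52Ser and 2702 to 3630 CPM in WT.

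Further matricellular and related genes were read from the same fit. Of 31 tested relatives, 3 were called lower and none was called higher. Their log2 fold changes, 22 negative and 9 positive, had a median of -0.53. Vtn and Cdh13 lay above every WT library in all Cys52Ser libraries but did not pass (log2 fold changes 0.67 and 0.98, edgeR adjusted p = 0.0952 and 0.126). Vtn had 1688 to 2330 CPM in Cys52Ser and 1052 to 1424 CPM in WT. Spp1, Lgals3, Tgfbi, Ccn1, Ccn4, Ccn5, Rspo1 and Rspo3 lay below every WT library in all Cys52Ser libraries and did not pass either. For Spp1 the log2 fold change was -1.98 (edgeR adjusted p = 0.0692). Over all tested genes, 14.4% lay above and 15.2% below without overlap. These uncalled relatives were named here after their values were seen. Fstl1, a secreted protein with a SPARC-like domain, had 29.7 ± 6.22 CPM in Cys52Ser and 69.6 ± 19.4 CPM in WT (SD, n = 3 each) and was 2.35-fold lower (edgeR adjusted p = 0.0393). Smoc2, another calcium-binding relative of SPARC, was 2.54-fold lower (adjusted p = 0.045), and Fbln5, an elastic fibre protein, 1.899-fold lower (adjusted p = 0.0267). None of these 3 overlapped between the groups, and Smoc2 varied little within Cys52Ser, at 20.6 ± 0.468 CPM against 52.2 ± 22.1 CPM in WT (SD, n = 3 each).

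Receptors for these proteins include integrins, syndecans and CD36. Of 28 tested, 3 were called lower and none was called higher, against 2.46% and 2.52% of all tested genes. Their log2 fold changes, 21 negative and 7 positive, had a median of -0.26. Sdc1, Sdc2, Sdc4 and Itgb3 lay above every WT library in all Cys52Ser libraries but did not pass. Their log2 fold changes were 0.54, 0.49, 0.68 and 0.99 (edgeR adjusted p = 0.104, 0.0714, 0.150 and 0.0720). Itgb5, Robo1, Itgb2, Itgam, Itga4, Tlr2, Tlr4, Calr and Cd47 lay below every WT library in all Cys52Ser libraries and did not pass either. Over all tested genes, 14.4% lay above and 15.2% below without overlap. These uncalled receptors were named after their values were seen. Itga8, the integrin subunit of stellate cells that binds fibronectin and tenascin, was 4.68-fold lower at 10.5 ± 1.69 CPM in Cys52Ser and 49.3 ± 22.0 CPM in WT (SD, n = 3 each, edgeR adjusted p = 0.0229). Itgb8, a subunit of an integrin that activates TGF-beta, was 4.29-fold lower (adjusted p = 0.0243). Cd36, a thrombospondin receptor and fatty acid transporter, was 1.67-fold lower (adjusted p = 0.0328).

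Among 25 tested genes of matrix assembly and turnover, 6 were called lower and 2 were called higher. Their log2 fold changes, 18 negative and 7 positive, had a median of -0.40. The versican-cleaving proteases Adamts9, Adamts15 and Adamts5 were 3.55-fold, 2.69-fold and 3.39-fold lower. Adamts1 and Adamts4 of the same family overlapped between the groups and did not pass. Their log2 fold changes were -0.27 and -0.81 (edgeR adjusted p = 0.647 and 0.488). Mmp2, a gelatinase, was 4.02-fold lower, and Loxl2 and Lox, which crosslink collagen, were 1.89-fold and 3.46-fold lower. The genes called higher were Bmp1 (1.68-fold), a procollagen protease, and Furin (1.76-fold), a proprotein protease. Furin had 286 ± 34.2 CPM in Cys52Ser and 162 ± 17.2 CPM in WT (SD, n = 3 each, edgeR adjusted p = 0.0299). Adamts1, Adamts4, Adamts5 and Lox lie outside the 6 smallest p-values of that list and were named after their values were seen.

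Of 20 tested TGF-beta ligands and targets, 4 were called lower and none was called higher. Their log2 fold changes, 16 negative and 4 positive, had a median of -0.44. Ltbp2, a matrix protein of the latent TGF-beta binding family, was 4.44-fold lower (edgeR adjusted p = 0.0314) and the ligand gene Tgfb2 4.16-fold lower (adjusted p = 0.0338). Tgfbr1, a TGF-beta receptor, was 1.62-fold lower, with 49.5 ± 5.47 CPM in Cys52Ser and 80.2 ± 10.5 CPM in WT (SD, n = 3 each, adjusted p = 0.0368). Bambi, a decoy receptor of the pathway, was 2.22-fold lower (adjusted p = 0.0468). Without Cys52Ser replicate 2, the numbers called lower were 3 relatives, 1 receptor, 2 assembly and turnover genes and 1 TGF-beta gene. Without Cys52Ser replicate 1 or 3 there was none in these 4 lists, and 28 genes were called over the whole table in each of those fits. Without WT replicate 2 the only call in these lists was 1 relative, and 59 genes were called in all, against 426 without WT replicate 1 and 829 without WT replicate 3.

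For each member the 3 genes with the nearest profile over the 6 libraries were picked. Likeness was the root mean square difference of centred log2 CPM profiles, with a smaller value meaning a closer match. The candidates were 13351 tested genes with a mean of at least 1 CPM, symbols of gene models being left out. Since the nearest of that many were picked over 6 libraries, the matches are a description only. The closest profile to Fn1 was that of Vac14 (0.0148), then Nucks1 (0.0406) and Lonrf3 (0.0436). Sparc was followed by Gramd1b (0.0487), Vsig8 (0.0611) and Armcx2 (0.0685), and Thbs2 by Plxdc2 (0.0353), Mtus2 (0.109) and Ntrk2 (0.124). Postn was nearest to Kifap3 (0.0978), Tnfrsf12a (0.103) and Tubb5 (0.109). Spon2 was nearest to Snhg18 (0.126), Col4a4 (0.149) and Il7r (0.154), and Spon1 to Enah (0.108), Ano1 (0.12) and Anks6 (0.137). Thbs1 was nearest to Plod2 (0.127), S100a11 (0.17) and Dnm3os (0.176), and Sparcl1 to Kcnk1 (0.148), Fermt1 (0.164) and Ahnak2 (0.174). Ptpru was among the closest to both Tnc (0.134) and Vcan (0.129). Tnc was further matched by Ttyh1 (0.144) and Zfp248 (0.148), and Vcan by Shisa4 (0.123) and Kcnma1 (0.142). No gene of the set was among the 3 closest to another.

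The deposited annotation lists terms that the genes share. The genes were chosen as a protein class, so such terms follow at least in part from that choice. All 10 are listed under extracellular region, as are 5.05% of the genes in the table. Cell adhesion was listed for 8 of them (1.9% of the table), calcium ion binding for 5 (2.34%) and heparin binding for Fn1, Postn, Thbs1 and Thbs2 (0.486%). Glycosylation of thrombospondin repeats was listed for Thbs1, Thbs2, Spon1 and Spon2, among 39 genes in the table. The pathway of matrix and receptor interaction held Fn1, Tnc, Thbs1 and Thbs2, among 82 genes. The genes lie on 9 chromosomes, Spon2 and Sparcl1 both being on chromosome 5.

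No other annotated gene overlapped Sparc, Spon1, Spon2, Thbs2 or Postn. The other 5 were each overlapped on the opposite strand, Vcan by 2 genes and the rest by 1, and the sources used here do not say if reads were counted by strand. Apol7d, across from Fn1, had 4 to 5 counts in Cys52Ser and 1 to 11 counts in WT libraries. Of the genes across from Vcan, the pseudogene Gm16318 was absent from the deposited table, and Gm4117 had 0 to 11 counts in Cys52Ser and 8 to 19 counts in WT libraries. The partners of Thbs1, Sparcl1 and Tnc had at most 9 counts in any library.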

How the data were processed

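Liver RNA of 3 Cys52Ser and 3 WT mice was analysed from the deposited table of the whole series. Per the submitters' processing notes, the tools were StringTie 1.3.4d, HISAT2 2.0.4, edgeR, DESeq2, cutadapt 1.9 and UMI-tools, and mm9 is named, although the deposited gene positions match GRCm38. The estimated counts, whole numbers as deposited, were used without rounding. The deposited FPKM values stand to those counts in a fixed ratio per gene (spread up to 1.08% over libraries relative to Fn1), so they carry no further information on isoforms and are scaled to library totals.

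Counts were fitted with edgeR 4.0.16 in R 4.3.3 (TMM, filterByExpr with a minimum count of 10, robust quasi-likelihood test, Cys52Ser over WT, Benjamini-Hochberg adjustment over 18648 genes). DESeq2 1.42.0 and limma 3.58.1, on log2(FPKM + 0.5), were alternatives. The members and all lists were chosen with earlier results of these data known. Genes named by rule are all members, the called genes of each list (up to 6 by p), and in marker lists the 2 highest by mean FPKM and any called. The uncalled relatives and receptors, and others said so in the text, were named after their values were seen. No label ties libraries to separate litters or cultures beyond the 3 mice per group, and the p-values measure the spread between these samples. Promoters come from RefSeq (GRCm38.p6).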

Additional observations from a re-analysis of the deposited data

How the results depend on the processing

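Over 18 alternatives none of the 10 genes changed sign, and Spon2 was called in all 18. The members were called as 3 lower and 1 higher in the reported fit. DESeq2 called 2766 genes, with 6 members, 8 relatives, 7 receptors and 9 TGF-beta genes lower and 2 relatives, 4 receptors and 4 assembly genes higher. Library totals alone called 3017 genes (9.71% of them higher, against 50.5%), with 9 relatives, 13 receptors and 11 TGF-beta genes lower, 1 assembly gene higher and 0 members higher. limma on FPKM with pseudocounts of 0.1, 0.5 and 1 called 2947, 2967 and 2842 genes (11%, 11.5% and 11.6% higher), each with 9 relatives, 10 receptors and 9 TGF-beta genes lower, 1 assembly gene higher and 0 members higher. Without a filter limma gave 1 member and 5 receptors lower, and 0 members and 0 assembly genes higher (13.8% of calls higher). Rescaled by TMM factors it gave 1 member, 3 assembly and 2 TGF-beta genes lower. A filter at a mean CPM of 1 gave 7 relatives lower, and upper quartile factors gave 5. Same-numbered libraries deviated together with r of 0.0051, 0.166 and 0.0642, and differently numbered ones with r from -0.172 to 0.161. Values this small cannot decide if the numbers pair the mice. With the replicate block 1 assembly gene and 0 members were higher (Fn1 adjusted p = 0.0527), and Thbs1 was called (log2 fold change -1.35, adjusted p = 0.049). Leaving out each library in turn called 28 to 829 genes. It gave 1 to 3 members lower and 0 higher, 0 to 3 relatives lower, 0 to 4 receptors lower and 0 to 1 higher, 0 to 5 assembly genes lower and 0 to 2 higher, and 0 to 4 TGF-beta genes lower. Where a library was left out fewer samples were tested, and for the other settings the cause was not tested. The FPKM order was the same in TPM.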
